A study of Homo sapiens with 5 samples.

Results

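The chaperone genes of HLF cells, a human hepatocellular carcinoma line, were described from their average mRNA levels. Members were chosen by symbol alone: TCP1, the CCT genes, and the genes named HSPA, HSPB, HSPD, HSPE, HSPH, HSP90, DNAJA, DNAJB or DNAJC. The rule found 70 of the 12468 genes in the deposited tables. They comprised 8 subunits of the CCT ring, 2 mitochondrial chaperonin genes, 3 HSP90 genes, 10 HSP70 genes, 3 HSP110 genes, 2 small heat shock genes and 37 DNAJ genes. A further 3 genes only share the prefix (HSPBP1, HSPBAP1 and HSPB11), and 2 are pseudogenes of HSP90 (HSP90AB2P and HSP90B3P).

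RNA sequencing covered 5 genotypes with 1 listed sample each. USP28 encodes a deubiquitinase. USP28-Ctrl cells carried the guide sgCtrl and USP28-KO cells the guide sgUsp28. The other 3 samples were sgUsp28 cells that also carried the vector pRRL-Ctrl, the wild type enzyme (pRRL-Usp28-WT, USP28-WT) or a mutant that does not form dimers (pRRL-Usp28-Mono, USP28-M). All were HLF cells without further treatment. According to the study's methods, knockout cells were made by CRISPR and received the constructs by lentivirus, so the reconstituted samples share a knockout background and a transduction that USP28-Ctrl cells lack.

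Chaperones bind unfolded proteins and help them reach or keep their native fold. HSP70 proteins are driven by ATP and are handed clients by DNAJ proteins, also called HSP40, whose J domain stimulates the ATPase, while HSP110 proteins exchange the nucleotide. HSP90 matures kinases and receptors together with co-chaperones. The CCT ring folds actin and tubulin in its cavity, and HSPD1 with its lid HSPE1 folds mitochondrial proteins in a cavity. Heat shock factor binds repeats of a short motif in the promoters of many of these genes, and stress of the endoplasmic reticulum (ER) acts through another motif.

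The values are log2 CPM, read counts scaled to library size on the log2 scale, averaged by the authors over all libraries of a comparison. One average covers USP28-Ctrl and USP28-KO (11102 genes) and another covers vector, USP28-WT and USP28-M (12342 genes); these are called the knockout set and the reconstituted set. The average does not separate the genotypes within a set, so no difference between genotypes, no replicate error and no test can be given here. The 2 sets were normalized separately, and genotype, transduction and library preparation cannot be told apart between them. The steps between low values gave about 7690000 reads over all libraries of the knockout set and, less certainly, 30500000 for the reconstituted set. USP28 itself averaged 5.15 log2 CPM in the knockout set and 9.79 in the reconstituted set, which does not check the knockout label of any sample. Of 9 hepatocyte markers, FGB alone was listed in the knockout set, and FGB (3.20 log2 CPM) and SERPINA1 (1.88 log2 CPM) in the reconstituted set. FGB was lower in the reconstituted set by a difference of -2.80 log2 CPM, and per transcript length it stood at percentile 77.6 of all genes in the knockout set and 33.4 in the reconstituted set. KRT8, KRT18, VIM, CDH2 and FN1 were listed in both sets, whereas EPCAM, CDH1, PTPRC and PECAM1 were listed in neither.

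Promoter sequences are shown first, with 2 motifs that were found in different members and were absent from most. They are from RefSeq, build GRCh38.p14, and run from 250 bases before a start site to 50 after it. Of the 70 members, 63 matched, and CCT6A, DNAJC1, DNAJC22, DNAJC24, HSP90AB2P, HSP90B3P and HSPA14 did not. A motif was counted for a gene if any of its windows held it on either strand, and 17 members had more than 1 window. The heat shock element, searched as 3 units of GAA and TTC in turn with 2 bases between neighbours, was found in 6 of 63 members (9.52%), against 0.608% of 27305 genes. The stretches, with the element in capitals and 10 bases on either side, read 5′ to 3′ on the strand of the gene:
HSPA8, chr11:123062169-123062201, minus strand, element from position -55 relative to the start site: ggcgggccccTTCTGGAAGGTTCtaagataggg
HSPA8, chr11:123062344-123062376, minus strand, from -230: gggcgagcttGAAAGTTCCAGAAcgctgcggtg
HSP90AA1, chr14:102087110-102087142, minus strand, from -88: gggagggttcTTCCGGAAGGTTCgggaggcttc
HSP90AB1, chr6:44247768-44247800, plus strand, from -165: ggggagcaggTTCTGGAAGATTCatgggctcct
HSP90AB1, chr6:44247821-44247853, plus strand, from -112: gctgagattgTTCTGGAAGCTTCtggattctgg
HSPD1, chr2:197500058-197500090, minus strand, from -240: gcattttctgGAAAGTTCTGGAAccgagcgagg
DNAJA1, chr9:33025266-33025298, plus strand, from 3: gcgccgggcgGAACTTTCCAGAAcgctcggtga
DNAJB6, chr7:157336863-157336895, plus strand, from -131: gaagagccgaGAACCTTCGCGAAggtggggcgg

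The HSPD1 element, measured from the start site that lies farther from HSPE1, overlapped a second match and was counted as one stretch. The shorter form with only 2 units, in either order (GAANNTTC or TTCNNGAA), stood in 20 of 63 members (31.7%) and in 16.2% of all genes. Among its holders were HSPA1A, HSPA1B, HSPB1, DNAJB1, HSPA9, TCP1, CCT2 and CCT4. A match is a string of letters and was not tested as a binding site, and a window without the letters says nothing of the factor.

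The ER stress element, searched as CCAAT and CCACG with 9 bases between them, was found in 2 members, 3.17% against 0.0916% of all genes. Both encode the major chaperones of the ER lumen, HSPA5 (BiP) and HSP90B1 (GRP94). The other ER genes HSPA13, DNAJB9, DNAJB11, DNAJC3 and DNAJC10 had windows without the element, and DNAJC1 had no window. Capitals again mark the element:
HSPA5, chr9:125241381-125241419, minus strand, from -66: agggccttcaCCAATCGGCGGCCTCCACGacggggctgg
HSP90B1, chr12:103930206-103930244, plus strand, from -194: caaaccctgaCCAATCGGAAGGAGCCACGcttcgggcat
HSP90B1, chr12:103930311-103930349, plus strand, from -89: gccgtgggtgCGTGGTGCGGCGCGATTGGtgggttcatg

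The other motifs searched were near their background. The CCAAT box, which is also part of the ER stress element, stood in 42.9% of members and 39.7% of all genes. The E-box CACGTG, the motif bound by MYC and its relatives, stood in 8 of 63 members (12.7%) and in 8.77% of all genes. The 8 were DNAJB9, DNAJC16, DNAJC8, HSP90B1, HSPA9, HSPBAP1, HSPD1 and HSPE1. HSPD1 and HSPE1, which encode the mitochondrial chaperonin and its lid, are read in opposite directions from start sites 105 bases apart, and a single E-box lies between them. The window of HSPE1, chr2:197500129-197500428 on the plus strand, holds it in capitals from position -22 relative to the HSPE1 start site:
HSPE1: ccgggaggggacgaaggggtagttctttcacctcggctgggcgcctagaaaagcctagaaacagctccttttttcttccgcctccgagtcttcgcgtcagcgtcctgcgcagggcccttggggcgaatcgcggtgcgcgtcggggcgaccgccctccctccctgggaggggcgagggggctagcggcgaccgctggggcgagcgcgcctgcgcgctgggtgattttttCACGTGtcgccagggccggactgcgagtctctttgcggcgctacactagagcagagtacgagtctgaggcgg

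Chaperones were among the abundant mRNAs of HLF cells, and the families differed widely. The members held 1.91% of the summed CPM in the knockout set and 1.53% in the reconstituted set. The 5 members with most reads accounted for 45.6% and 44.6% of the members' reads, and all DNAJ genes together for 11.6% and 13.0%. The member with most reads was HSPA8, at 11.16 and 11.28 log2 CPM, in place 20 and place 23 among all genes of the sets.

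Since long transcripts give more reads, levels of different genes were compared per 1000 bases of the longest coding transcript. On this scale the median of the members was 4.62 in the knockout set, beside 3.57 over all genes, and 4.50 in the reconstituted set, beside 3.15. The highest 20% of all genes by level per length (the background is 20% in each set, by definition) held 32 of 67 members in the knockout set (47.8%, 95% Wilson interval 36.3 to 59.5) and 31 of 68 in the reconstituted set (45.6%, 34.3 to 57.3). The interval treats members as independent draws and covers no measurement error. The abundant members were chiefly chaperonins and heat shock proteins. Of all members outside the DNAJ genes, 23 of 32 and 23 of 31 were in that class, whereas 9 of 35 and 8 of 37 DNAJ genes were. The counts outside the DNAJ genes include those that only share the prefix, with 2 of 2 and 2 of 3 in that class. They also include the pseudogenes, with none in it.

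**Figure D1:**
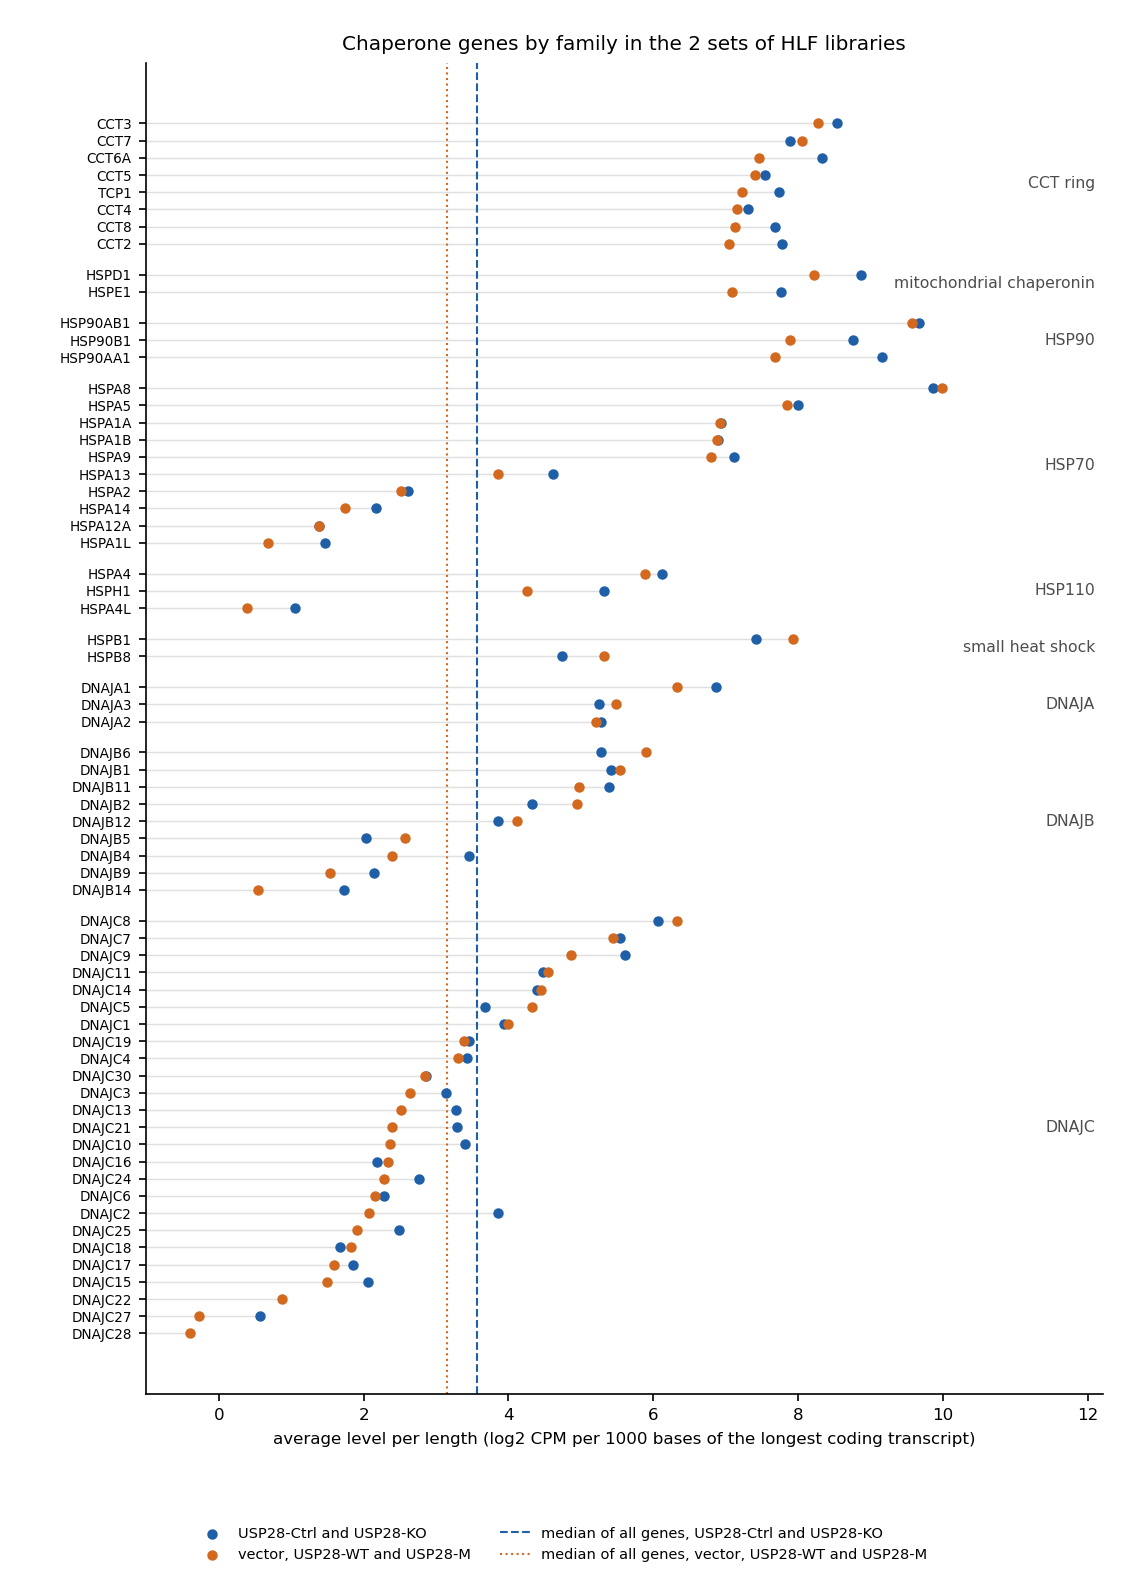
Average level per length (log2 CPM per 1000 bases of the longest coding transcript, horizontal axis) of each member except the prefix-only genes and pseudogenes, grouped by family, with 1 point for each set of libraries and no error, since each point is 1 average. The CCT, mitochondrial chaperonin and HSP90 genes all lie far above the medians of all genes (3.57 and 3.15, vertical lines), while the HSP70 and DNAJC genes spread to both sides.

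The 8 subunits of the CCT ring were all in the highest 20% in both sets. The ring takes 1 copy of each subunit, and their levels per length lay within 1.23 log2 units in the knockout set and within 1.22 in the reconstituted set, a ratio of 2.35 and 2.33 between the highest and the lowest. In the knockout set the levels per length were 8.53 for CCT3, 8.33 for CCT6A, 7.88 for CCT7, 7.77 for CCT2, 7.74 for TCP1, 7.68 for CCT8, 7.54 for CCT5 and 7.30 for CCT4. In the reconstituted set they were 8.27 for CCT3, 8.05 for CCT7, 7.46 for CCT6A, 7.41 for CCT5, 7.22 for TCP1, 7.16 for CCT4, 7.13 for CCT8 and 7.05 for CCT2. CCT3 was therefore the highest on this scale in both sets, and the order of the subunits below it was not the same. With the coding length in place of the transcript the spread was 1.16 and 1.25, and CCT6A (9.10) stood above CCT3 (8.92) in the knockout set. With the median transcript it was 2.68 and 2.64, since short annotated fragments set the length of CCT3 and TCP1. No error of the averages is known, so none of these orders could be tested.

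The mitochondrial chaperonin HSPD1 had an average level of 10.16 log2 CPM in the knockout set and 9.52 in the reconstituted set. Its lid HSPE1 had 7.69 and 7.01. Both were thus lower in the reconstituted set, by 0.64 and 0.68. Per length of the longest transcript HSPD1 was higher than HSPE1, 8.86 against 7.76 and 8.22 against 7.08. Per coding length the pair was level, 9.37 against 9.38 and 8.73 against 8.70, so the order of these genes depended on the length used. The mitochondrial HSP70, HSPA9, which imports and folds matrix proteins, had a level per length of 7.12 and 6.79. Its J protein partner DNAJA3 had 5.25 and 5.49. The J proteins of the inner membrane DNAJC19 (3.46 and 3.39), of the import motor, and DNAJC15 (2.06 and 1.49) were lower, as was DNAJC11 of the cristae contact sites (4.47 and 4.54). Per coding length DNAJC15 (6.18 and 5.61) stood above DNAJC19 (5.51 and 5.44) and DNAJC11 (5.45 and 5.51), beside 6.19 and 6.43 for DNAJA3.

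**Figure D2:**
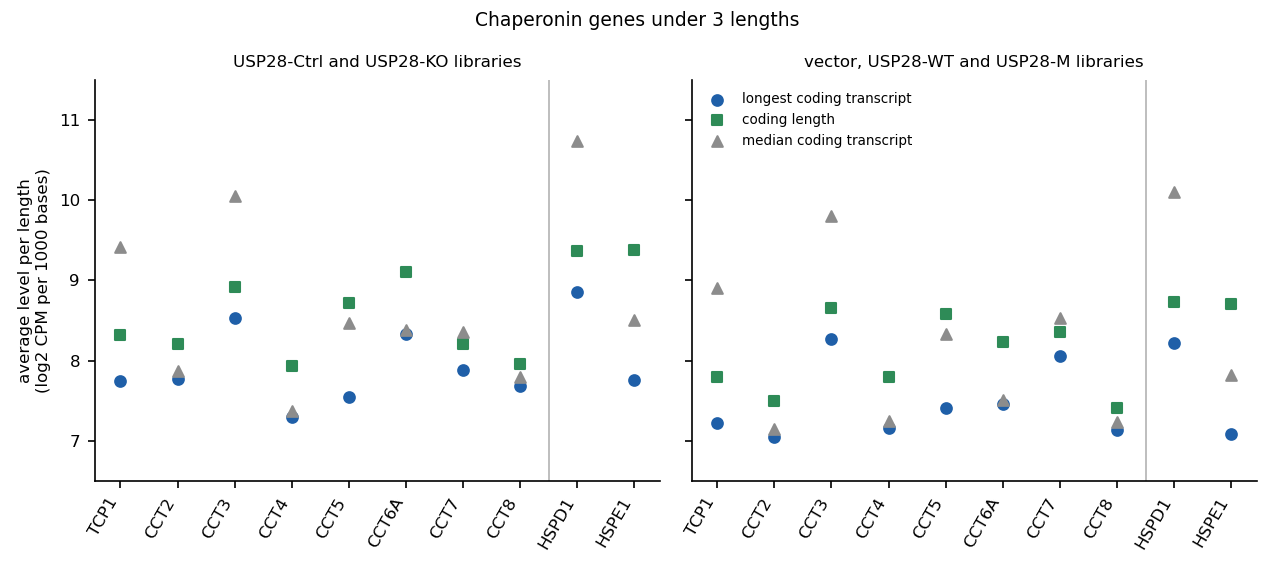
Average level per length (log2 CPM per 1000 bases, vertical axis) of the CCT subunits and of HSPD1 and HSPE1 (right of the line) under 3 definitions of length, in each set of libraries. HSPD1 and HSPE1 coincide under the coding length (9.37 and 9.38 in the knockout set) and lie apart under the other 2, and the median transcript raises CCT3, TCP1 and HSPD1 most.

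By the median level per length of the longest transcript the HSP90 genes were the highest family, at 9.16 and 7.88, beside 8.31 and 7.65 for the mitochondrial chaperonin. Per coding length the order was the same in the knockout set (9.61 and 9.38) and turned in the reconstituted set (8.13 and 8.72). Per length HSP90AB1, the constitutive cytosolic form, stood at 9.67 in the knockout set and 9.57 in the reconstituted set. HSP90AA1, the cytosolic form that is induced by heat, stood at 9.16 and 7.68. HSP90B1, the ER form, stood at 8.75 and 7.88. The excess of HSP90AB1 over HSP90AA1 was thus 0.51 log2 units in the first set and 1.90 in the second, or 0.35 and 1.74 per coding length. Per median coding transcript, the planned length, the difference was -0.28 and 1.11, so HSP90AA1 was then the higher of the pair in the knockout set. The pseudogenes HSP90AB2P (4.52 log2 CPM) and HSP90B3P (2.73) were listed in the knockout set only.

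The HSP70 genes covered the widest range of the heat shock families, 8.47 log2 units per length in the knockout set and 9.31 in the reconstituted set. HSPA8, the constitutive cytosolic HSP70, was the highest member of all, at 9.86 and 9.98 per length. HSPA5, the ER form, followed at 7.99 and 7.84. The stress-inducible pair HSPA1A (6.93 and 6.92) and HSPA1B (6.89 and 6.88) was near equal, but 72.6% of the 50-base stretches of HSPA1A occur in other genes, mostly in HSPA1B, and how such reads were counted is not given in the sources used here. HSPA8 exceeded HSPA1A by 2.93 and 3.06 log2 units per length. HSPA13 of the ER (4.62 and 3.85) lay in the middle of the family. The testis-enriched HSPA2 (2.61 and 2.51) and HSPA1L (1.47 and 0.68), the ribosome-associated HSPA14 (2.17 and 1.74) and the divergent HSPA12A (1.39 and 1.38) lay below the median of all genes.

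Among the HSP110 genes, HSPA4 had levels per length of 6.12 and 5.89, HSPH1 of 5.32 and 4.26, and HSPA4L of 1.06 and 0.39. HSPA4L has a longest transcript of 10790 bases, and per coding length its values were 3.16 and 2.49. Of the small heat shock genes, which hold unfolded proteins without ATP, HSPB1 (7.42 and 7.93) was higher than HSPB8 (4.74 and 5.32), the partner of BAG3 in selective autophagy. Both, and HSPA8, were the heat shock genes with a higher average log2 CPM in the reconstituted set. HSPBP1, a nucleotide exchange factor of HSP70, had levels per length of 6.35 and 6.17. HSPB11, an intraflagellar transport protein, had 5.92 and 5.09, and HSPBAP1 was listed in the reconstituted set only, at 1.23.

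DNAJ genes were lower, with a median per length of 3.45 in the knockout set and 2.64 in the reconstituted set. All 3 DNAJA genes were in the highest 20%, led by DNAJA1 (6.87 and 6.33). DNAJA2 (5.28 and 5.21) and DNAJA3 (5.25 and 5.49) followed, in an order that differed between the sets. Of the DNAJB genes, DNAJB6 (5.28 and 5.90), which suppresses aggregation, and DNAJB1 (5.42 and 5.54), the classic HSP40, were the highest with DNAJB11 (5.39 and 4.98). DNAJB9 (2.14 and 1.53), also of the ER, DNAJB5 (2.04 and 2.57) and DNAJB14 (1.73 and 0.54), which is anchored in the ER membrane, were the lowest of the DNAJB genes in the knockout set. DNAJC8, which associates with splicing factors, led the DNAJC genes on this scale in both sets with 6.07 and 6.33. DNAJC9, a histone chaperone, had 5.61 and 4.87. The lowest were DNAJC27 (0.57 and -0.27) and DNAJC28, listed in the reconstituted set only at -0.39, as was DNAJC22 at 0.87. DNAJB12, DNAJC4, DNAJC6, DNAJC7, DNAJC13, DNAJC17, DNAJC18, DNAJC24, DNAJC25 and DNAJC30 lay between 1.67 (DNAJC18) and 5.54 (DNAJC7) per length in the knockout set and between 1.59 (DNAJC17) and 5.44 (DNAJC7) in the reconstituted set. Of the DNAJC genes, 15 of 23 and 16 of 25 lay below the median of all genes.

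The 8 members on the list of ER genes (HSPA5, HSP90B1, HSPA13, DNAJB9, DNAJB11, DNAJC1, DNAJC3 and DNAJC10), which leaves out DNAJB12 and DNAJB14 of the ER membrane, ranged from 2.14 to 8.75 per length in the knockout set and from 1.53 to 7.88 in the reconstituted set. Beside those already named, DNAJC1 had average levels of 5.02 and 5.07 log2 CPM. Per length, DNAJC3, a cofactor of BiP, had 3.14 and 2.64, and DNAJC10, a disulfide reductase, 3.40 and 2.37. DNAJC10 has a longest transcript of 20129 bases, and per coding length its values were 6.48 and 5.45. DNAJC15 likewise went from 2.06 to 6.18 and from 1.49 to 5.61 with that change, so the place of both genes within the family depended on the length used.

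Of 42 further genes of the chaperone network, all were listed in both sets, beside 10976 of the 12468 genes listed in either. In each set 21 of the 42 stood in the highest 20% by level per length. The list of 42 was written with earlier results of these data known. CALR and CANX, lectin chaperones of the ER, led with 9.54 and 9.35 and with 7.97 and 7.72. STIP1, which links HSP70 to HSP90, had 7.63 and 7.70, and PFDN5, a subunit of prefoldin, which delivers clients to the CCT ring, had 7.37 and 7.59. PFDN2 (7.36 and 6.54) and PDIA4 of the ER (6.89 and 6.95) were each among the 5 highest in 1 set. BAG4 (1.44 and 1.20), CLPB (1.82 and 2.19) and SUGT1 (2.40 and 1.31) were the lowest per length. Without regard to length, SUGT1 averaged 6.22 and 5.13 log2 CPM and CLPB 5.17 and 5.54. The medians of all genes were then 5.33 and 4.90, so the place of SUGT1 and CLPB depended on the length used. Per length, HSF1, the main heat shock factor, had 4.61 and 5.11, and HSF2 had 3.20 and 2.68.

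The level of a gene can be set side by side between the sets without regard to its length. Over the 10976 genes listed in both sets, the reconstituted set was lower by a median of 0.12 log2 CPM (a difference of -0.12), with quartiles of -0.50 and 0.20. Over the 65 members listed in both, the median difference was -0.23, and 27 members lay above the shift of all genes and 38 (58.5%) below it. The shift is the median of all genes, so 5488 of them lay on each side by definition. The order of the members was much the same (Spearman's rho 0.968 across 65 genes, beside 0.934 across all genes, a description over genes within these libraries). More than 1 log2 unit below the shift lay 3 of 65 members, beside 6.61% of all genes. None lay more than 1 unit above it, beside 2.41% of all genes.

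The 3 were DNAJC2, a J protein bound to the ribosome (5.46 against 3.68 log2 CPM, a difference of -1.77), HSP90AA1 (10.97 against 9.49, -1.48) and DNAJB14 (4.34 against 3.14, -1.19). By rank among the genes listed in both sets, DNAJC2 fell from percentile 52.5 to 19.6, DNAJC21, a factor of ribosome assembly, from 64.2 to 46.4, and DNAJB4, a cytosolic HSP40, from 42.0 to 24.7. The largest rises in rank were those of DNAJB5 (14.7 to 28.5), HSPB8 (62.6 to 76.3) and DNAJB2 (66.1 to 79.5). Of the CCT subunits 7 of 8 lay below the shift, which by definition has as many genes above it as below. CCT4 and CCT5 were on it within rounding (-0.01 each) and CCT3 was at -0.14. CCT2, CCT6A, CCT8 and TCP1 lay between -0.40 and -0.74. CCT7 was the exception (8.90 against 9.07 log2 CPM). Both small heat shock genes lay above the shift.

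**Figure D3:**
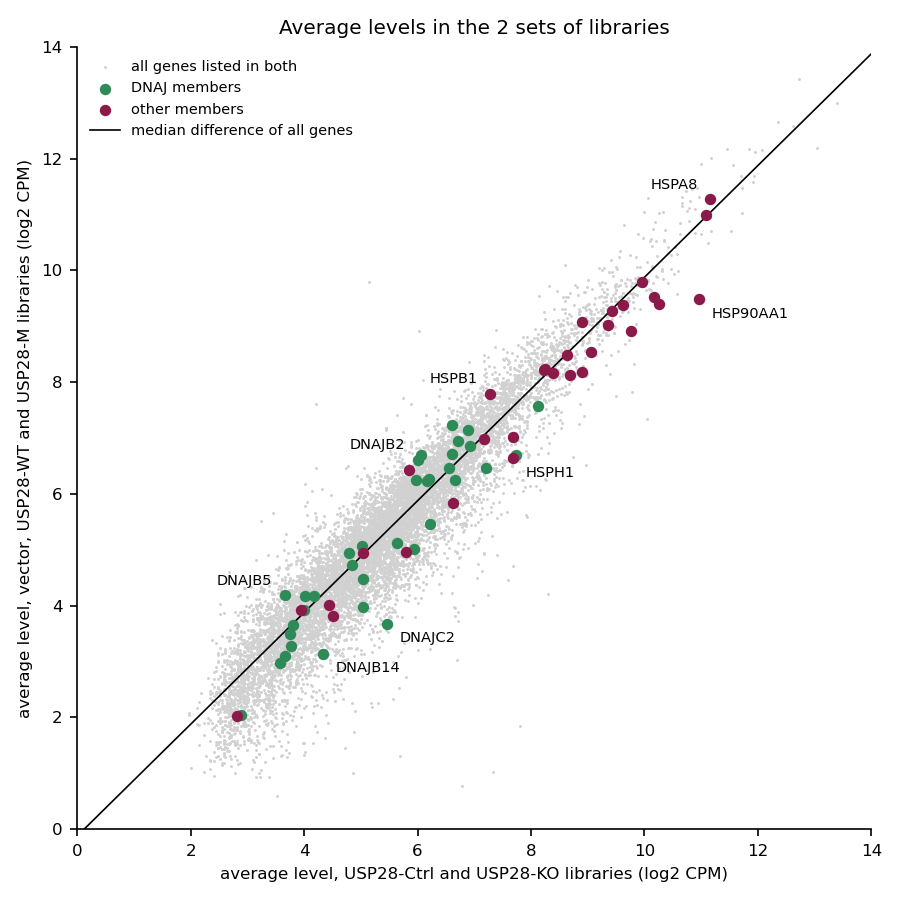
Average level (log2 CPM) of each gene in the USP28-Ctrl and USP28-KO libraries (horizontal axis) and in the vector, USP28-WT and USP28-M libraries (vertical axis), with all genes in grey and members in colour; the line is the median difference of all genes (-0.12). Most members lie along the line, and DNAJC2, HSP90AA1 and DNAJB14 lie more than 1 log2 unit below it.

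The difference between the sets moved with the GC content of the transcripts. Spearman's rho between them was 0.48 across 10742 genes and 0.633 across the 65 members, as a description over genes that share the same libraries. The median GC content was 45.2% for the members and 47.9% for all genes. With the median of genes of like GC content taken off, in 20 bins, 22 members lay above and 43 below 0, and the median of the members was -0.09. By definition the median of all genes in each bin is 0. On that scale DNAJC2 was at -1.57 and HSP90AA1 at -1.37, HSPB11 was at -0.93, and DNAJB2, DNAJB6, DNAJC5 and DNAJC19 were at 0.55. DNAJB14, whose transcript has a GC content of 33.4%, went from -1.07 relative to the shift of all genes to -0.31 relative to genes of like GC content, and DNAJB4 (33.1%) from -0.93 to -0.17. The part of GC content in these differences was not tested.

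**Figure D4:**
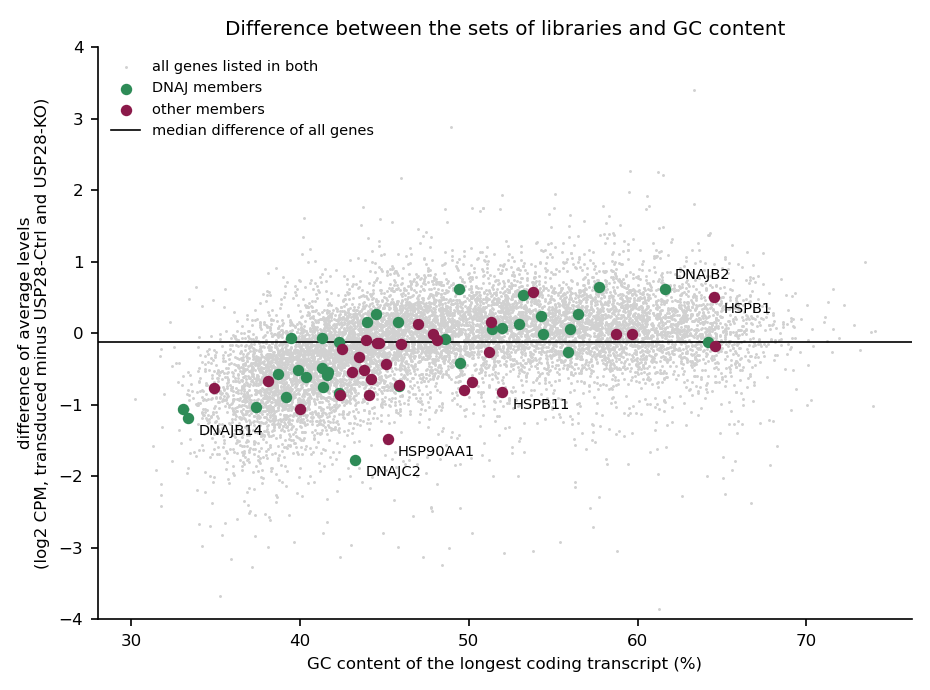
Difference of average levels between the sets of libraries (log2 CPM, reconstituted minus knockout set, vertical axis) against the GC content of the longest coding transcript (%), with all genes in grey and members in colour; 6 genes lie outside the vertical axis. Members of low GC content, such as DNAJB14, lie mostly below the median difference (-0.12), and HSP90AA1 and DNAJC2 lie below most genes of like GC content.

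The levels of several members rest on sequence they share with other genes. Of the 70 members, 50 had a stretch of 50 bases that also occurs in the transcript of another gene. Either strand was counted, so overlaps with genes read in the opposite direction are included. For 23 members such stretches made up more than 10% of the longest transcript. These are 71.4% and 32.9% of the members, beside 62.3% and 25.6% of the 12051 genes of the tables with a transcript. Beside the HSPA1A and HSPA1B pair, examples were 54.4% for DNAJC14, 52.9% for HSPE1, 49.8% for CCT5, 42.0% for DNAJC11, 22.1% for TCP1, 21.4% for HSP90AA1, 18.8% for HSP90AB1 and 15.4% for HSPA8. Reads of those stretches may have been dropped or assigned to another gene, and their effect on the levels was not tested.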

How the data were processed

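RNA was sequenced from 5 samples of HLF cells. According to the submitters' processing notes, the tools were bcl2fastq 2.20, STAR 2.5.4 and edgeR 3.26.8 and the build hg19; the counting, filter and number of libraries per condition are not given in the sources used here. The authors deposited 3 comparison tables, of which the average log2 CPM per gene was used. The log2 fold changes, F statistics, p-values and adjusted p-values that the tables also hold are the authors' comparisons and were not used, so the planned test between genotypes was not possible. In the table of USP28-KO and USP28-Ctrl the column names stand 1 place to the left of the values. The averages in the 2 other tables were identical, and tables were joined by NCBI gene ID (51 IDs had differing symbols). Per-sample columns without a matched sample numbered 0.

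Lengths, GC content and shared stretches came from GENCODE release 29. The planned length, the median over coding transcripts, was replaced by the longest coding transcript after the values had been seen under 4 lengths, because short annotated fragments set it for HSPD1, HSPA9, CCT3 and TCP1. Percentiles were taken over genes with a length (97.8% and 96.7%). Motifs were searched 5 times in RefSeq promoters. Depth came from the steps of the lowest values, of which 96.6% and 66.1% lay within 0.1 of a whole read; the step search was tested on simulated data. Counting alone gave an error of up to 14.0% for the lowest members. Genes were named by a fixed rule: all chaperonin and HSP genes, the highest and lowest DNAJ and network genes, compartment members, genes listed in some tables only and the largest changes of rank. Network genes were ranked per length. DNAJB1, DNAJB14, DNAJC5, DNAJC14 and DNAJC16 fall outside it and were named after their values were seen; the remaining DNAJ genes are given as a range. The members and lists were chosen with earlier results of these data known. Figures were drawn with matplotlib 3.10.9, and computations ran in scipy 1.17.1, pandas 2.3.3 and numpy 2.4.6 under Python 3.11.15.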

Additional observations from a re-analysis of the deposited data

How the results depend on the processing

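Of 39 alternatives, 30 stayed within the limits used (the 95% interval of a share, 1.5 times a count or a percentage of reads, 0.1 log2 units for a median or spread) and 9 did not. Leaving out a few genes could hardly move a count or a percentage of reads beyond its limit. Those alternatives were therefore a weak check. The spread of the 8 CCT subunits per length was 2.68 in the knockout set and 2.64 in the reconstituted set with the median transcript, which was the planned length; 4 lengths were looked at before the longest transcript was chosen, and this spread is smaller under the chosen length. The share of member promoters with a heat shock element was 31.7% with 2 alternating units, since a shorter motif matches more often. The other 6 were medians of levels, which rose when low or prefix-only genes were left out. The share of members in the highest 20% per length ran from 28 of 67 (median transcript) to 32 of 64 in the knockout set and from 27 of 68 (median transcript) to 31 of 68 in the reconstituted set. With stretches of 75 bases 16 members shared over 10% of their transcript, against 23. The protein table planned for coding lengths was not used here, and GENCODE coding lengths stood in for it. No paired analysis was possible because each gene has 1 average per set of libraries and no result comes from a test. For the same reason no replicate could be left out, and the spread between libraries, the effect of the normalization and the genotype differences could not be examined.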
